A study of Mus musculus with 4 samples.

Results

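A group of 10 genes of immune restraint is described in allergen-inflamed mouse ears: Foxp3, Il2ra, Il10, Ctla4, Lag3, Havcr2, Pdcd1, Cd274, Pdcd1lg2 and Ido1. They were taken by name from the array's annotation, with every non-control spot that carried one of these names. All 10 genes were on the array, with 11 probes on 20 spots, out of 34797 gene names with 55681 probes on 59305 non-control spots. Pdcd1lg2 had 2 probes and the others 1 each, and the Il10 probe was printed on 10 spots.

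The arrays came from ear tissue of 4 mice, taken 48 h after the ears had been treated with 2,4-dinitrofluorobenzene (DNFB), a hapten that causes allergic contact inflammation. The 2 mutant mice (K14Cre RelAfl/fl, called RelAE-MUT in the labels) carried floxed alleles of RelA and a Cre recombinase under the keratin 14 promoter. The 2 wild-type mice (RelAfl/fl) carried the same floxed alleles without the recombinase. RelA (p65) is a DNA-binding subunit of NF-kB, and the keratin 14 promoter is active in basal keratinocytes, so the recombinase is not directed at T cells, macrophages or dendritic cells. Only the mutants carried Cre, so its presence and the deletion cannot be told apart. All ears had received DNFB, and untreated skin was not analysed here. The labels used here give no age, sex or strain background.

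Regulatory T cells hold back immune responses in the skin, and the transcription factor Foxp3 defines them. They carry the high-affinity IL-2 receptor subunit CD25 (Il2ra) and the inhibitory receptor CTLA-4, and can secrete the cytokine IL-10. Checkpoint receptors such as PD-1 (Pdcd1), LAG-3 and TIM-3 (Havcr2) restrain activated T cells, and PD-1 is engaged by the ligands PD-L1 (Cd274) and PD-L2 (Pdcd1lg2). The enzyme IDO1 breaks down tryptophan and thereby limits T cell proliferation.

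Values are log2 intensities relative to the array's 75th percentile, so that 0 is the 75th percentile and each unit is a 2-fold step. The 4 arrays had 61.21% to 64.27% of their spots well above background and 0 saturated spots, and a corner of the array of mutant mouse 2 was damaged. Rela itself stood at 4.59 and 4.72 in mutant mice 1 and 2 and at 4.48 and 4.60 in wild-type mice 1 and 2, with a log2 fold change of 0.11 ± 0.12 (SE, n = 2 mice per group) and an adjusted p of 0.899 in limma. Its spot lies in the damaged corner, and the labels do not name the deleted exons, so this value does not check the deletion. Keratinocyte genes such as Krt14 and Krt5 and all 17 genes of a T cell list passed the detection filter, which asks that a probe be well above background in both mice of a group. Whole tissue was measured, so fewer cells of a type and less RNA per cell cannot be told apart.

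The ligand gene Pdcd1lg2 is read by 2 probes that lie on chromosome 19 at 29545470 to 29545529 (probe 1) and 29545473 to 29545532 (probe 2) of mouse build mm9. Their last 30 of 60 bases are shown because they decide whether these are separate measurements, with the bases at which they differ in capitals. The probes overlap by 57 bases and are identical at 55 of these. The differences are C53T and G58A, counted from 1 at the 5′ end of probe 1, with the base of probe 1 given ahead of that of probe 2. They therefore share their target and are not independent.
Pdcd1lg2 probe 1: tggaagcatttaagcaacacgtCaagtGcc
Pdcd1lg2 probe 2: aagcatttaagcaacacgtTaagtAccccc

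The probes for its receptor and for the other ligand are those with the next largest differences among the tested probes, and the last 30 bases of each are given in the same way. Cd274 is read on the same chromosome at 29462363 to 29462422, which is 83048 bases from the Pdcd1lg2 probes. The Pdcd1 probe lies on chromosome 1 at 95935064 to 95935123, on the minus strand.
Cd274: tatgaagtttaagaaaatatcgggttgggc
Pdcd1: ccaacactggggtgttagaatctcctcatt

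Mutant ears were compared with wild-type ears to ask whether genes of immune restraint differ in inflamed skin when RelA is deleted in the epidermis. Of the 11 probes, 10 passed the detection filter and were tested, which covers 9 genes. Limma called 0 of these 10 probes at an adjusted p of 0.05, with 0.785 as the smallest value, and none reached 0.05 before adjustment. Over all 33675 probes tested 0.0208% were called, 0.0119% as higher and 0.00891% as lower in the mutants. Before adjustment 6.55% of all probes reached 0.05, of which those lower in the mutants made up 3.56% of all probes. The members had lower values in the mutants at 7 of the 10 probes and higher ones at 3, with a median log2 fold change of -0.12, against 0.01 for all probes tested, of which 47.4% were below 0. The largest differences were at the genes of the PD-1 receptor and its ligands. With 2 mice per group the exact permutation test of a single value cannot go below a two-sided p of 0.333.

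**Figure D1:**
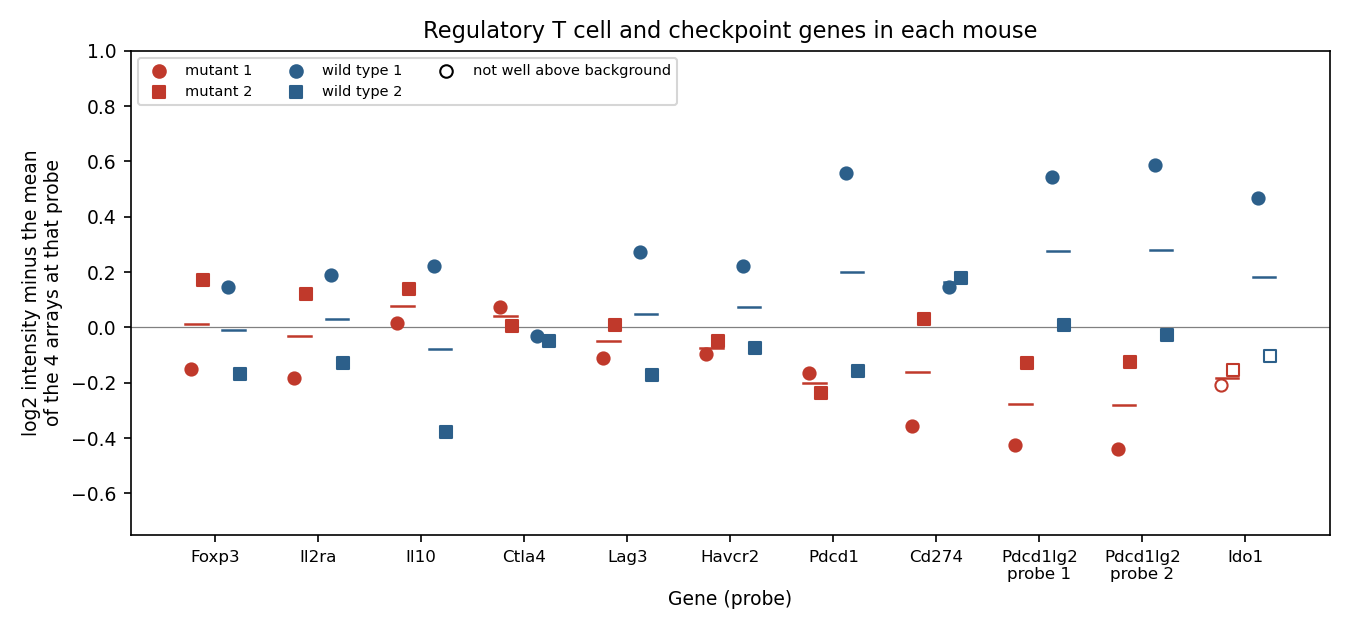
Log2 intensity of each mouse at the 11 probes (x axis), with the mean of the 4 arrays at that probe subtracted (y axis). Mutants are in red to the left and wild types in blue to the right, short lines are group means, and open symbols were not well above background. Wild-type mouse 1 is the highest point at 7 of the 10 tested probes (25% of all probes tested). The mutants lie below both wild types at Pdcd1, Cd274 and both Pdcd1lg2 probes. Ido1 was well above background only in wild-type mouse 1, so the order of its points is not read.

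Pdcd1lg2 encodes PD-L2, a ligand of PD-1 found mainly on dendritic cells and macrophages. Its probe 1 stood at -1.60 and -1.30 in mutant mice 1 and 2, against -0.63 and -1.17 in wild-type mice 1 and 2. Probe 2 gave -1.60 and -1.28 in the mutants, against -0.57 and -1.18 in the wild types. At both probes the mutants lay below the wild types without overlap, with wild-type mouse 1 standing well above the other 3 mice. The log2 fold change was -0.55 ± 0.23 at probe 1 (SE, n = 2 mice per group, limma adjusted p = 0.785) and -0.56 ± 0.25 at probe 2 (adjusted p = 0.798), or 1.46-fold and 1.48-fold lower in the mutants. The 95% intervals, -1.16 to 0.06 and -1.23 to 0.11, hold 0 at both probes. Without wild-type mouse 1 the values were -0.28 and -0.26, and without wild-type mouse 2 they were -0.82 and -0.87.

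Cd274 encodes PD-L1, a ligand of PD-1 that interferon gamma induces in keratinocytes, endothelium and myeloid cells. It stood at 1.26 and 1.64 in the mutants, against 1.76 and 1.79 in the wild types. The wild types were close together, 0.03 apart, while the mutants were 0.38 apart, and the groups did not overlap. This gave a log2 fold change of -0.33 ± 0.17 (adjusted p = 0.831), with a 95% interval from -0.77 to 0.12. It was -0.13 without mutant mouse 1, the lowest of the 4 mice, and -0.52 without mutant mouse 2.

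Pdcd1 encodes PD-1, the receptor of both ligands on activated T cells. It stood at -2.81 and -2.88 in the mutants, against -2.08 and -2.80 in the wild types. The mutants lay below the wild types, but wild-type mouse 2 was only just above them, and wild-type mouse 1 stood apart from the other 3 mice. This gave a log2 fold change of -0.40 ± 0.26 (adjusted p = 0.866), which was -0.04 when wild-type mouse 1 was left out and -0.76 when wild-type mouse 2 was. The groups overlapped with normexp, another correction of the background, and also when only probes above background on every array set the percentile.

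Lower values without overlap were thus found at 4 of the 10 tested member probes, against 17.6% of all probes tested, and at 3 of the 9 tested genes, against 17.4% of all genes at their brightest probe. The 4 probes were those of Cd274, Pdcd1 and Pdcd1lg2, and Pdcd1lg2 counts among them with a pair of overlapping probes. The probe of Ctla4 had higher values without overlap, as did 18.7% of all probes. None of these genes passed the test, so their share is a description of 4 mice.

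**Figure D2:**
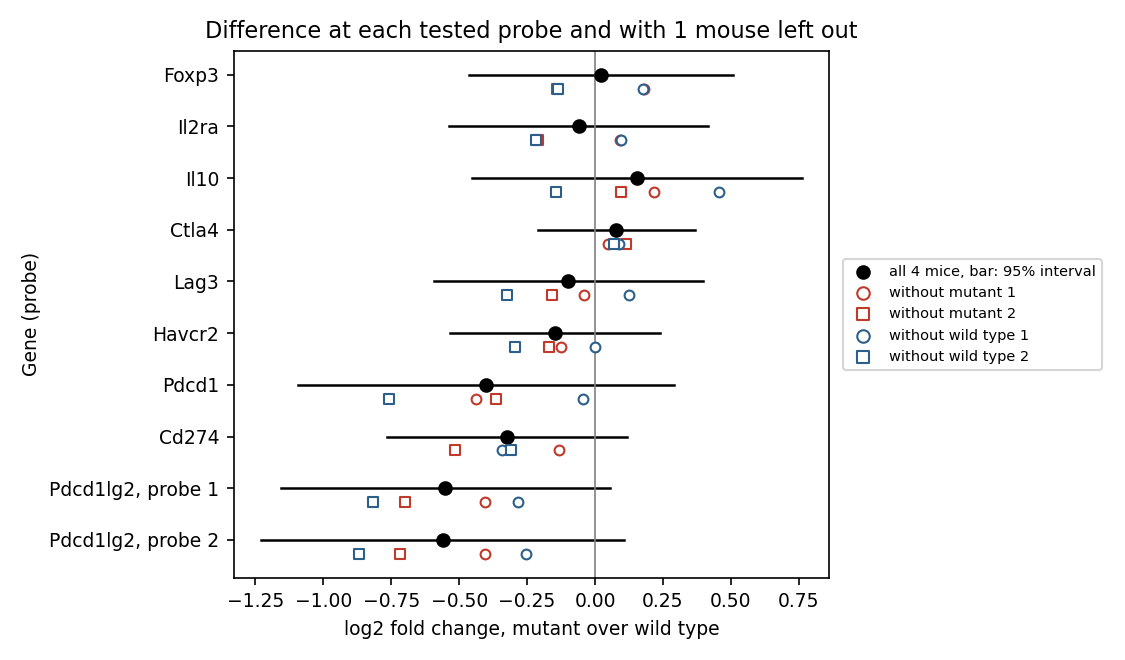
Log2 fold change of mutant over wild type (x axis) at the 10 tested probes (y axis), as black points with 95% intervals for all 4 mice. Open symbols below each give the value with 1 mouse left out. Every interval crosses 0, and Pdcd1 stands at -0.04 when wild-type mouse 1 is left out, against -0.40 with all mice.

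Among the other receptors, Ctla4, which encodes the inhibitory receptor that competes with CD28 for its ligands, varied least between mice. It stood at -1.80 and -1.86 in the mutants, against -1.90 and -1.92 in the wild types. The groups did not overlap but were close, with a log2 fold change of 0.08 ± 0.11 (adjusted p = 0.92) and a 95% interval from -0.21 to 0.37. They overlapped when only probes above background on every array set the percentile.

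Lag3 encodes a checkpoint receptor that binds MHC class II. Its probe has 60 bases but spans 297 bases of chromosome 6, from 124854570 to 124854866 in mm9. The probe's bases thus do not form an unbroken stretch of the genome. Lag3 stood at -3.18 and -3.06 in the mutants, against -2.80 and -3.25 in the wild types. The mutant values lay between the wild-type ones, and the log2 fold change was -0.10 ± 0.19 (adjusted p = 0.946).

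Havcr2 encodes TIM-3, a receptor of T cells that macrophages and dendritic cells also carry. It stood at -0.88 and -0.83 in the mutants, against -0.56 and -0.86 in the wild types. Wild-type mouse 1 stood above the other 3 mice, which lay within a narrow range. The log2 fold change was -0.15 ± 0.15 (adjusted p = 0.895), and 0.00031 without wild-type mouse 1.

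Foxp3, the transcription factor of regulatory T cells, had close group means. It stood at -1.23 and -0.91 in mutant mice 1 and 2, against -0.93 and -1.24 in wild-type mice 1 and 2. Each group held a high and a low mouse, and the ranges nearly coincided. The log2 fold change was 0.02 ± 0.18 (adjusted p = 0.988), and its 95% interval, -0.46 to 0.51, leaves room for differences of that size in either direction. The probe lies on chromosome X at 7172301 to 7172360 in mm9.

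Il2ra, the CD25 subunit of the IL-2 receptor that regulatory and activated T cells carry, had the same 2 high and 2 low mice as Foxp3. It stood at 0.02 and 0.32 in the mutants, against 0.38 and 0.07 in the wild types. Mutant mouse 2 and wild-type mouse 1 were high and the others low, so the groups overlapped. The log2 fold change was -0.06 ± 0.18 (adjusted p = 0.97). At Foxp3 and Il2ra the gap between the mice of a group, from 0.30 to 0.32, was several times the difference between the groups.

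Il10 encodes the anti-inflammatory cytokine IL-10 and was measured on 10 spots per array, which gives the spread between spots that share an RNA sample, labelling and hybridisation. Its spots had intensities from 27.94 to 39.97 (median 34.77) in mutant mouse 1 and from 24.92 to 48.63 (median 36.26) in mutant mouse 2. They ranged from 37.03 to 54.53 (median 42.54) in wild-type mouse 1 and from 20.36 to 33.63 (median 28.12) in wild-type mouse 2. These are within a few-fold of the dimmest intensity that counted as well above background, between 12.98 and 15.79 on the 4 arrays. The highest used spot on each of the arrays of mutant mouse 2 and of both wild types was the one in the corner that is damaged on the array of mutant mouse 2.

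On the log2 scale the spots of an array had an SD of 0.16 and 0.27 in the mutants and of 0.17 and 0.22 in the wild types, with 9 or 10 spots used. The array means were -4.14 and -4.02 in the mutants, against -3.94 and -4.54 in the wild types. Both mutants lay between the wild types, which were 0.60 apart. Between the groups the log2 fold change was 0.16 ± 0.23 (adjusted p = 0.926). The other members have a single spot per probe. The overlapping probes of Pdcd1lg2 differed from each other by 0.002 to 0.062 on the log2 scale over the 4 arrays.

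**Figure D3:**
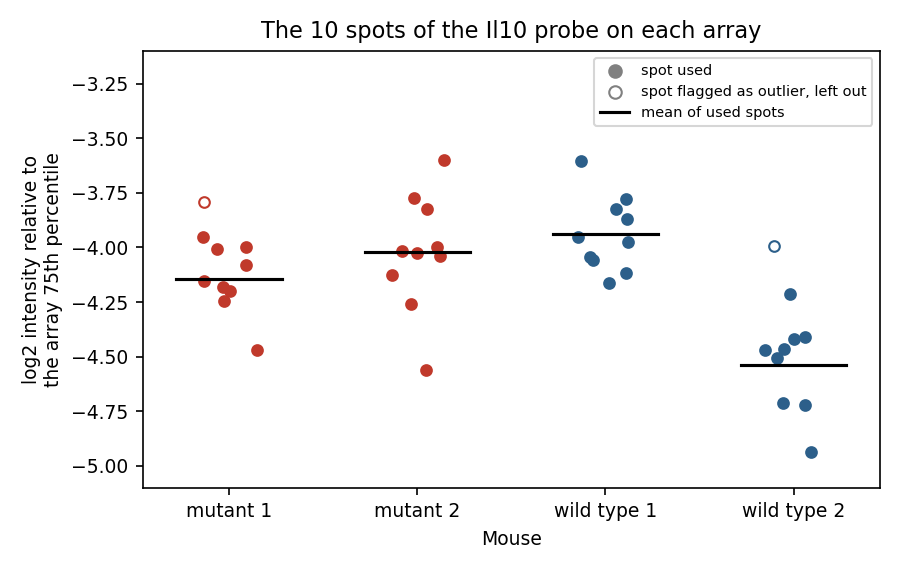
Log2 intensity relative to the array 75th percentile (y axis) of each spot of the Il10 probe on the arrays of the 4 mice (x axis). Lines are means of the used spots, and open symbols are the spots left out, 1 on the array of mutant mouse 1 and 1 on that of wild-type mouse 2. The mean of wild-type mouse 2 lies lowest, at -4.54, and the means of the mutants lie between those of the wild types. The spots themselves overlap between arrays, with those of mutant mouse 2 from -4.562 to -3.598.

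Ido1, the enzyme of tryptophan breakdown that interferon gamma induces, was near background and was not tested. Its intensity was 9.86 and 9.75 in the mutants, against 16.88 and 10.68 in the wild types. It was well above background only on the array of wild-type mouse 1, so neither group has a measured level on all its arrays and no fold is given.

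The order of the mice was alike at several members. Wild-type mouse 1 was the highest of the 4 at 7 of the 10 tested member probes, and at 25% of all probes tested. It was the lowest at 0 of the 10, against 32.9% of all probes tested. Mutant mouse 1 was the lowest at 5 and wild-type mouse 2 at 4, while mutant mouse 2 was lowest at 1. Over all probes tested these shares were 26%, 18.9% and 22.2%. The overlapping probes of Pdcd1lg2 are both counted in the 7 and in the 5.

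Genes of T cells in general had a similar order. All 17 genes of the T cell list had a lower mean in the mutants, with a median log2 fold change of -0.265. Over all 23633 genes at their brightest probe, 46.5% were below 0 and the median was 0.014. Values were lower without overlap at 6 of the 17, against 17.4% of all genes. Wild-type mouse 1 was highest at 13 of the 17 and mutant mouse 1 lowest at 15 (25% and 26% of all probes tested). Limma called 0 of the 17, against 0.0169% of all genes, of which 0.00846% were higher and 0.00846% lower in the mutants. An unadjusted p under 0.05 was seen at 1 of the 17, which was lower, against 6.51% of all genes in either direction and 3.55% lower. The summed level of the list, in units of the array's 75th percentile, was 50.05 and 56.29 in the mutants, against 59.66 and 57.9 in the wild types. This sum is weighted heavily to the brightest gene of the list, Thy1, and is not an even measure of the 17 genes. Thy1 stood at 4.65 and 4.75 in the mutants, against 4.65 and 4.87 in the wild types. The median log2 level of the 17 genes was 0.64 and 0.82 in the mutants, against 1.05 and 0.73 in the wild types. By the median the groups thus overlapped, since mutant mouse 2 lay above wild-type mouse 2. No marker of the list was undetected. The largest differences were at Cd8a (-0.53 ± 0.29, adjusted p = 0.851) and Cd8b1 (-0.44 ± 0.31, adjusted p = 0.872), the chains of the CD8 coreceptor, and at the costimulatory receptor gene Cd27 (-0.44 ± 0.17, adjusted p = 0.782). At both CD8 chains the groups overlapped, with mutant mouse 2 above wild-type mouse 2. Cd4, the coreceptor of helper and regulatory T cells, had -0.09 ± 0.10 (adjusted p = 0.903). The part of T cell number in the values of Pdcd1, Lag3 and the other T cell receptors was not tested.

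**Figure D4:**
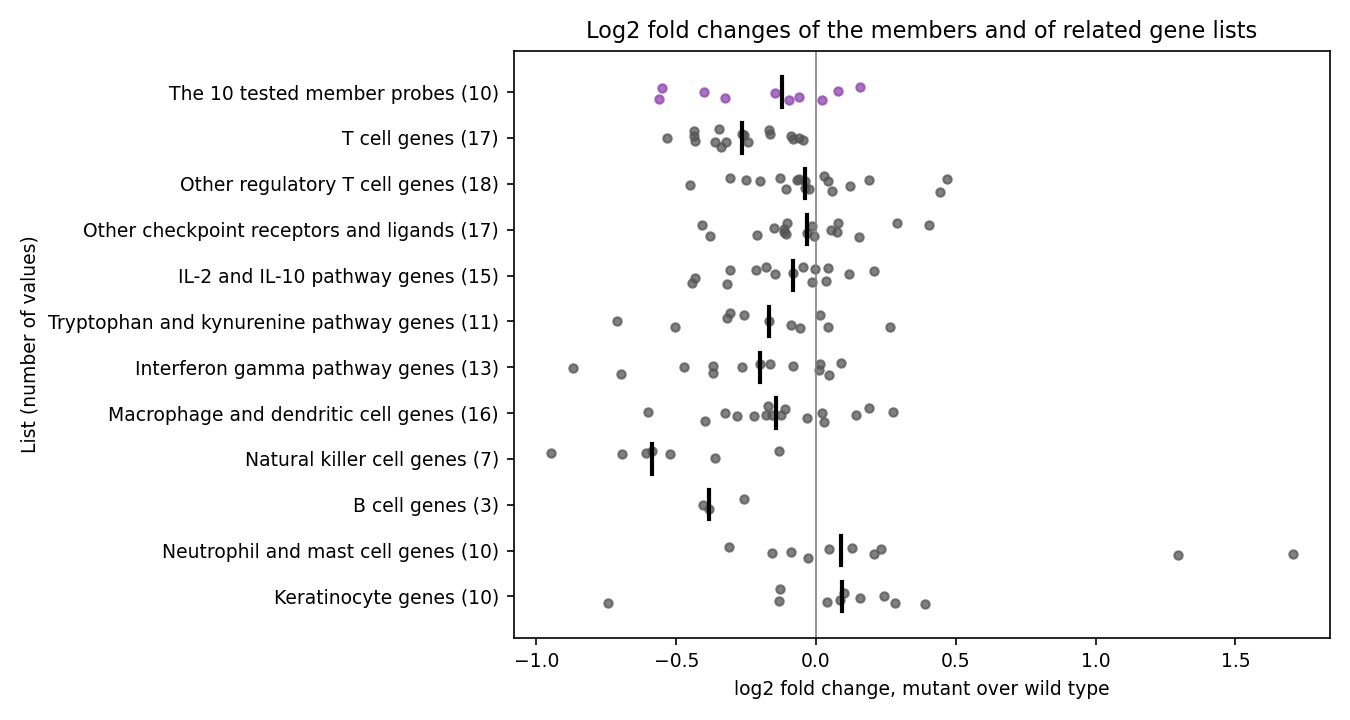
Log2 fold change of mutant over wild type (x axis) for the 10 tested member probes and for the tested genes of 11 lists, each gene at its brightest probe (y axis, number of values in brackets). Points are genes, jittered vertically, and black bars are medians. All 17 T cell genes lie below 0, while the other regulatory T cell genes have a median of -0.04.

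Other genes of regulatory T cells lay on both sides of 0. Of 18 tested genes 7 were higher and 11 lower in the mutants, with a median log2 fold change of -0.04, while 46.5% of all genes were below 0. Limma called 0, and 1 had an unadjusted p under 0.05 (over all genes, 0.0169% and 6.51%). Ikzf4, which encodes the Foxp3 partner Eos, stood at -0.94 and -0.65 in the mutants, against -0.24 and -0.45 in the wild types (-0.45 ± 0.16, adjusted p = 0.74). Il1rl1, the receptor of IL-33 on tissue regulatory T cells, mast cells and type 2 lymphoid cells, stood at 0.56 and 0.30 in the mutants, against 0.22 and -0.24 in the wild types (0.44 ± 0.20, adjusted p = 0.815). Capg, an actin-capping protein gene, had 0.47 ± 0.30 (adjusted p = 0.865), with 5.80 and 5.82 in the mutants against 4.92 and 5.76 in the wild types. Tnfrsf18, the GITR gene, Icos and Tnfrsf4, the OX40 gene, which regulatory T cells carry at high levels, had 0.19, -0.04 and -0.06.

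Of 17 tested genes of other checkpoint receptors and ligands 6 were higher and 11 lower in the mutants, with a median of -0.03. Limma called 0, and 2 had an unadjusted p under 0.05, 1 in each direction (over all genes, 0.0169% and 6.51%). Values below 0 were found for 46.5% of all genes. Tnfrsf14, which encodes HVEM, the ligand of the inhibitory receptor BTLA, had -0.41 ± 0.13 (adjusted p = 0.713). Fgl1, which encodes a ligand of LAG-3, had 0.40 ± 0.12 (adjusted p = 0.678), and Cd226, an activating receptor that competes with TIGIT, had -0.38 ± 0.31 (adjusted p = 0.878). The ligands of CTLA-4, Cd80 and Cd86, had -0.11 and -0.03.

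The IL-2 and IL-10 pathway had 15 tested genes, of which 4 were higher and 11 lower in the mutants, with a median of -0.08. Limma called 0, against 0.0169% of all genes, of which 46.5% were below 0. An unadjusted p under 0.05 was seen at 2, both lower, as at 3.55% of all genes. Il2rg, the common chain that signals with Il2ra, stood at 0.32 and 0.40 in the mutants, against 0.95 and 0.64 in the wild types (-0.43 ± 0.15, adjusted p = 0.737). Il10ra, the ligand-binding chain of the IL-10 receptor, had -0.31 ± 0.13 (adjusted p = 0.79). Il15, a cytokine that shares receptor chains with IL-2, had -0.44 ± 0.14 (adjusted p = 0.725), and the kinase gene Tyk2 -0.32 ± 0.13 (adjusted p = 0.784).

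Around Ido1, 11 genes of the tryptophan, kynurenine and aryl hydrocarbon receptor pathway were tested, of which 3 were higher and 8 lower in the mutants, with a median of -0.17. Limma called 0, against 0.0169% of all genes, of which 46.5% were below 0. An unadjusted p under 0.05 was seen at 1, which was lower, as at 3.55% of all genes. Cyp1a1, a target of the aryl hydrocarbon receptor, stood at -0.23 and -0.47 in the mutants, against 0.69 and 0.04 in the wild types (-0.71 ± 0.25, adjusted p = 0.745). Kynu, which encodes kynureninase, had -0.51 ± 0.21 (adjusted p = 0.79) and Afmid, the next enzyme after IDO1, -0.32 ± 0.14 (adjusted p = 0.798). The related enzymes Ido2 and Tdo2 were not tested, since they did not pass the detection filter.

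Interferon gamma induces Cd274 and Ido1, and 13 genes of its pathway were tested. Among them 4 were higher and 9 lower in the mutants, with a median of -0.20, and limma called 0, with 1 at an unadjusted p under 0.05 (6.51% over all genes). Gbp2, an interferon-inducible GTPase gene, stood at 3.62 and 4.30 in the mutants, against 4.83 and 4.82 in the wild types (-0.87 ± 0.25, adjusted p = 0.671). Cxcl9, a chemokine gene, had -0.70 ± 0.29 (adjusted p = 0.79) and Ifng itself -0.47 ± 0.28 (adjusted p = 0.855). Mutant mouse 1 was the lowest of the 4 at 9 of the 13 genes, as it was at Cd274 and at both Pdcd1lg2 probes, against 26% of all probes tested. It was also the lowest at 15 of the 17 T cell genes and at 6 of 7 natural killer cell genes. The macrophage and dendritic cell list, whose cells carry the ligands, had 5 of 16 tested genes higher and 11 lower, with a median of -0.14. Limma called 0 of the 16, against 0.0169% of all genes. An unadjusted p under 0.05 was seen at 2, both lower, as at 3.55% of all genes. The summed level of this list was 322.1 and 317.4 in the mutants, against 367.6 and 332.7 in the wild types. It is weighted heavily to the brightest gene, H2-Ab1, with 7.28 and 7.29 in the mutants, against 7.45 and 7.34 in the wild types. The median log2 level of these genes overlapped, with 1.93 and 1.62 in the mutants, against 2.05 and 1.72 in the wild types. Fcgr1, a high-affinity receptor for IgG, had -0.60 ± 0.22 (adjusted p = 0.762), Cd68 -0.40 ± 0.11 (adjusted p = 0.663) and Batf3 -0.33 ± 0.20 (adjusted p = 0.862). The part of the number of these cells in the values of Cd274 and Pdcd1lg2 was not tested.

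Promoter sequence was examined because RelA acts at NF-kB motifs and because interferon gamma acts through GAS and ISRE motifs. RefSeq windows of build GRCm38.p6, cut to the 250 bases before the gene start, were read for 7 members, Foxp3 with 2 starts. Il10, Lag3 and Ido1 are named only. Searched on both strands were the GAS motif (TTC, any 3 bases, GAA), the ISRE core (GAAA, any 2 bases, GAAA) and the NF-kB consensus. A match to the NF-kB consensus was found for Il2ra and Pdcd1lg2, against 7.25% of 32851 such windows. GAS was matched in 1 of the Foxp3 windows, at -139 to -131 from the start (7.02% of all windows), and the ISRE core in none of the 8 windows (2.98%). A match is a description of the letters and not a site, and the absence of these letters from a window says nothing of the factor.

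The windows of Pdcd1lg2 (chr19:29410669-29410918, plus strand), Cd274 (chr19:29367188-29367437, plus strand) and Il2ra (chr2:11642542-11642791, plus strand) are printed. The ligands had, together with Pdcd1, the largest differences among the tested members, and Il2ra holds the other match. Capitals mark the NF-kB matches, at -244 to -235 in Pdcd1lg2 and -201 to -191 in Il2ra, where overlapping matches were joined. Cd274 has no capitals. The 2 genes with a match differed in their values, with -0.55 and -0.56 at the Pdcd1lg2 probes and -0.06 at Il2ra, and none passed the test.
Pdcd1lg2: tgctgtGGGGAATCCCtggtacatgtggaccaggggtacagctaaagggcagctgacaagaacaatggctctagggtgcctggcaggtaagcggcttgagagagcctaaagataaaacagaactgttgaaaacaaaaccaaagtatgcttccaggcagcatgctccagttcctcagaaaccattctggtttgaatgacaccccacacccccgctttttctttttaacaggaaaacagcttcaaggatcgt
Cd274: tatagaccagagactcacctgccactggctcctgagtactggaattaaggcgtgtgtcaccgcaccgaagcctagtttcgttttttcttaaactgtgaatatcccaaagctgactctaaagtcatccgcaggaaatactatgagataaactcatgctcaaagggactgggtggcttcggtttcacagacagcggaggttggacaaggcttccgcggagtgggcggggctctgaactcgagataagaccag
Il2ra: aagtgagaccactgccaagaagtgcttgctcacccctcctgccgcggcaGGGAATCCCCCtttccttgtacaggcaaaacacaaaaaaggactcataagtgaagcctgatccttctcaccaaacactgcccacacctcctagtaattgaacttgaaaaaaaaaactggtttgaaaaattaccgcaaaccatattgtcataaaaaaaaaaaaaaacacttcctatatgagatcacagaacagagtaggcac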

How the data were processed

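Each ear gave 1 one-colour (Cy3) array, labelled from 100 ng of RNA per the labels. Per the file headers, the deposited intensities were made with Agilent Feature Extraction 10.7.3.1 on mm9, which subtracted a spatially fitted background and did not scale arrays to each other. The deposited flags (values of 0 or 1, per the file headers) mark spots well above background, saturated spots and outliers. The authors' series table holds, from its values, the deposited ratio of each spot's processed intensity to its array's median (59305 spots, equal within 1.46e-05 on the log2 scale).

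The log2 of each processed intensity was taken, less that array's 75th percentile. Outlier spots were left out and spots of a probe averaged. A probe entered the test if both mutant or both wild-type arrays had it well above background, which left 33675 probes. The fit was lmFit and eBayes of limma 3.58.1 (R 4.3.3) on all tested probes, mutant minus wild type, two-sided, with Benjamini-Hochberg adjustment over all of them at a threshold of 0.05 and 2 residual degrees of freedom. Errors given with ± are moderated standard errors. List genes were fitted at their brightest tested probe, 23633 genes in all. The fit was run on simulated data with shifts far larger than the differences of the members, so that run does not bear on differences of their size. The members and lists were chosen with earlier results of these data known. Named are all members, the 3 genes of each list with the largest difference, and Rela, except for a B cell gene that is not reported here. Cd4, Thy1, Lat, Krt14, Krt5, Tnfrsf18, Icos, Tnfrsf4, Cd80, Cd86, Il10ra, H2-Ab1, Cxcr2, Ly6g, Ido2 and Tdo2 were named after their values were seen. Nothing in the labels says that replicate numbers pair mice, so the fit has no pairing. Precision is limited by having 4 arrays. Figures were drawn with matplotlib 3.10.9.

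Alternatives were normexp correction, quantile normalization, median centring, another percentile, the series table, other filters on dim probes, a single value per gene, eBayes with trend and robust, replicate blocks, leaving out the damaged corner (2897 spots, its edge set by eye) and leaving out each mouse. Of the member spots, 1 Il10 spot lies in that corner. Cd79b and the T cell gene Lat are among the list genes with a spot there.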

Additional observations from a re-analysis of the deposited data

How the results depend on the processing

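Over 16 alternatives, the crossed block among them chosen after seeing the data, limma called 0 member probes in each, and the smallest adjusted p of a member lay between 0.535 and 0.999. The direction held under every alternative run for Cd274, Pdcd1, Ctla4 and both Pdcd1lg2 probes. It turned for Lag3 with normexp background correction (0.014). With 1 mouse left out the log2 fold change ranged from -0.32 to 0.13 for Lag3, from -0.15 to 0.46 for Il10, from -0.29 to 0.00031 for Havcr2, from -0.22 to 0.10 for Il2ra and from -0.14 to 0.18 for Foxp3, each turning sign. The number of member probes lower without overlap ranged from 4 to 9 with 1 mouse left out, 9 being of 11 tested probes without wild-type mouse 2 (8 of the 10 members tested with all mice, beside Ido1). With 1 mouse left out 30.2% to 34.1% of all probes were lower without overlap, against 17.6% with all mice. Under the other alternatives 3 to 5 member probes were lower without overlap.

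Over all probes, 7 were called. There were 4 at gene level, 2 with probes above background on all 4 arrays, 1 when dim probes were kept, and 35 with eBayes with trend and robust, where 2 list genes, S100a8 and S100a9, were also called. Leaving out 1 mouse gave 0 to 177 probes, 0 without wild-type mouse 1 or 2 and 177 without mutant mouse 1, where mutant mouse 2 with its damaged corner stands alone. Left-out fits assume that a lone mouse varies like the other group. With the replicate block, which takes equal replicate numbers as pairs, 1 probe was called. Deviations of same-numbered mice correlated at -0.159, so the crossed replicate block was also fitted and called 1. Both blocks called 0 members. The cause of these changes was not tested. Il10 and Ido1 are limited by signals near background. In mutant mouse 1 the named list genes Kynu, Cd226, Klrk1, Cd27 and Ncr1 stood at -4.94, -4.33, -4.30, -4.13 and -4.01. These are near the -4.14 of Il10 in that mouse. Mmp8 stood at -4.51 in mutant mouse 2, and these list genes are limited in the same way.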

Other observations

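Lists of other cells that an inflamed ear can hold were examined beside the members. All 7 tested natural killer cell genes had a lower mean in the mutants, with a median log2 fold change of -0.59. Limma called 0, and 2 had an unadjusted p under 0.05. Values were lower without overlap at 4 of the 7, against 17.4% of all genes. Mutant mouse 1 was lowest at 6 of the 7 and wild-type mouse 1 highest at 6 (26% and 25% of all probes tested). Over all genes 46.5% were below 0, 0.0169% were called, and 6.51% had an unadjusted p under 0.05, 3.55% as lower. Klrk1, the NKG2D receptor gene, stood at -4.30 and -3.53 in the mutants, against -2.81 and -3.13 in the wild types (-0.95 ± 0.30, adjusted p = 0.711). Ncr1, a natural killer receptor gene, had -0.69 ± 0.48 (adjusted p = 0.872) and Eomes, a transcription factor gene of these cells, -0.61 ± 0.38 (adjusted p = 0.865). The groups overlapped at Ncr1 and Eomes. The 3 tested B cell genes had lower means too, with 0 called by limma (1 at an unadjusted p under 0.05). Among them were Cd79a (-0.40 ± 0.12, adjusted p = 0.707) and Cd79b (-0.26 ± 0.12, adjusted p = 0.832), which encode the signalling chains of the B cell receptor. A spot of the Cd79b probe lies in the corner that is damaged on the array of mutant mouse 2. Ms4a1, Pax5 and Blk did not pass the detection filter.

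Of 10 neutrophil and mast cell genes 6 were higher and 4 lower, with a median of 0.09 and 0 called (2 at an unadjusted p under 0.05, both higher). The largest differences were at S100a8 (1.71 ± 0.18, adjusted p = 0.364) and S100a9 (1.30 ± 0.14, adjusted p = 0.364), the calprotectin genes that stressed keratinocytes also express. Mmp8 had -0.31 ± 0.37 (adjusted p = 0.908), and the neutrophil genes Cxcr2 and Ly6g had 0.21 and -0.09. Which cells gave the S100a8 and S100a9 signal was not tested. Of 10 keratinocyte genes 7 were higher and 3 lower, with a median of 0.09 and 0 called (1 at an unadjusted p under 0.05, which was lower). For both lists, the shares over all genes were 46.5% below 0, 0.0169% called and 6.51% with an unadjusted p under 0.05. Krt15, a keratin of basal and bulge keratinocytes, had -0.74 ± 0.17 (adjusted p = 0.574), Krt1 0.39 ± 0.21 (adjusted p = 0.851) and Dsg3 0.28 ± 0.16 (adjusted p = 0.852).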
